A study of Mus musculus with 18 samples.

Results

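The genes described here are the nuclear-encoded subunits of the mitochondrial respiratory chain and of ATP synthase, read in colonic epithelium of wild-type mice and of mice lacking a Rab11 family interacting protein. They were chosen by name alone: every protein-coding gene whose symbol starts with Ndufa, Ndufb, Ndufc, Ndufs, Ndufv, Uqcr, Cox4 to Cox8 or Atp5, or is Sdha, Sdhb, Sdhc or Sdhd. This gave 94 of 54532 genes in the count table, of which 87 had enough counts to be among the 17692 genes tested. Polyadenylated RNA was sequenced as 18 libraries with reads of 150 nt, 3 libraries in each of 6 groups. The groups are wild type (BL6/J, written WT), Rab11FIP1KO (FIP1KO) and Rab11FIP2KO (FIP2KO), each from distal and from proximal colon. All were untreated fresh tissue, from which the epithelium was shaken loose mechanically with 30 mM EDTA in cold PBS. The labels give no age and do not say which exons the knockout alleles lack, nor whether each library is a different mouse. The p-values below therefore measure the spread between libraries, which may be technical.

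Respiratory chain complexes pass electrons from NADH and succinate to oxygen and pump protons out of the mitochondrial matrix, and ATP synthase uses the returning protons to make ATP. Complex I takes electrons from NADH, complex II from succinate, complex III hands them to cytochrome c and complex IV reduces oxygen. Most subunits are nuclear genes whose proteins are imported, while a small set of core subunits is encoded on mitochondrial DNA, so each complex except complex II needs products of both genomes. In the colon, absorptive cells rely on oxidation of bacterial butyrate in mitochondria for much of their ATP. Rab11FIP1 and Rab11FIP2 are adaptors of the small GTPase Rab11, which directs recycling endosomes and apical membrane traffic in epithelial cells.

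Library totals ran from 11193308 to 22062300 counts. Normalised counts (CPM, counts relative to library size) are scaled to the TMM-adjusted library size, and deposited FPKM values, which divide by gene length, are used wherever the levels of different genes are compared. Rab11fip1 averaged 116 ± 20.5 CPM (SD, n = 3) in WT distal and 48.5 ± 2.10 in FIP1KO distal libraries, and 138 ± 41.6 against 67.5 ± 14.7 in proximal colon. Rab11fip2 averaged 7.38 ± 0.0842 CPM in WT distal and 3.52 ± 0.914 in FIP2KO distal libraries, and 6.61 ± 1.91 against 3.67 ± 0.529 in proximal colon. Each targeted transcript was therefore lower in its knockout but still present (edgeR adjusted p between 0.000697 and 0.0469), although the proximal Rab11fip2 difference missed the threshold without WT proximal library 2 (log2 fold change -0.60, edgeR adjusted p = 0.147). The 8 epithelial markers (keratins, Cdx2, Cdh1 and others) summed to between 8392 and 15641 CPM in every library. WT proximal library 2 stood apart: it had the lowest scaling factor (0.814), the highest summed neuronal markers (115 CPM against 20.0 and 23.4 in the other two) and the highest cytosolic ribosomal protein sum (42044 CPM against 25612 and 19735). The members' medians and named member changes that involve it are given with and without it. Other values that involve it, such as those of other lists and of markers, are given without it only where stated. A further 12 processed pseudogenes and 1 noncoding gene with matching names were left out by the biotype rule. The pseudogenes held at most 86 counts each. The noncoding gene, Ndufb1-ps, held 5831 counts and had a log2 fold change of 0.70 in FIP1KO against WT distal libraries (edgeR adjusted p = 0.0563).

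The members differ widely in level. Among complex IV genes the median of the mean FPKM over all libraries was 605, above complex III (413), ATP synthase (278), complex II (237) and complex I (127), and far above the complex I assembly factors (16.7) that share the Nduf prefix. The most abundant members were Cox6a1 at 1649 FPKM (range over libraries 923 to 2252), Cox4i1 at 1486 (1028 to 1832) and Atp5b, the catalytic beta subunit of ATP synthase, at 1479 (1156 to 1802). In complex I, the accessory subunits Ndufa6 (333 FPKM) and Ndufb9 (279.7) led and Ndufb2 (12.9) was lowest. Uqcrh (651) and Uqcrc2 (504) led complex III, Sdha (409) and Sdhb (284) complex II, Atp5a1 (694) followed Atp5b in ATP synthase, and Ndufaf8 (37.2) led the assembly factors. Unequal levels within a complex are levels of RNA and say nothing of protein.

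**Figure D1:**
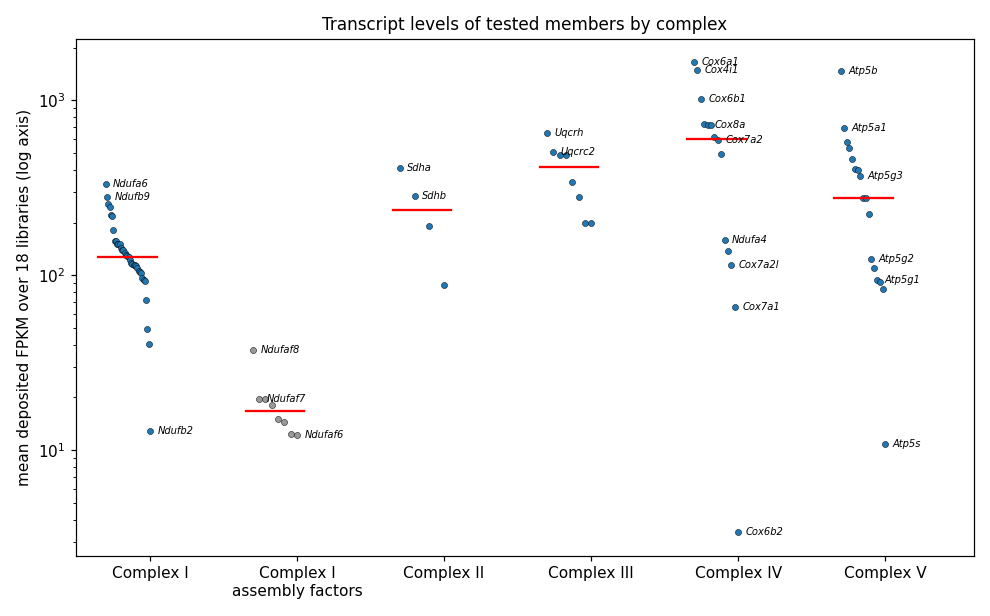
Mean deposited FPKM over 18 libraries (log axis) of each tested gene, 1 point per gene, grouped by complex; red bars are the medians of the groups. Complex IV holds both the highest point (Cox6a1, 1649 FPKM) and the lowest (Cox6b2, 3.40 FPKM), and the assembly factors lie below nearly all subunits.

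Several complex IV subunits are encoded by alternative genes used in different tissues, and the membrane ring of ATP synthase by 3 genes for the same subunit. Of the tissue alternatives the libraries held the widely used form almost alone. Cox4i1, at 1486 FPKM, stood beside the lung and low-oxygen form Cox4i2 at 0.0598 FPKM. Cox6a1 stood at 1649 FPKM beside the muscle form Cox6a2 at 0.251, and Cox6b1 at 1019 FPKM beside the testis form Cox6b2 at 3.40. Cox8a had 719 FPKM and Cox7b 718, whereas Cox8c and Cox7b2, both known from testis, had no count in any library. The muscle form Cox8b had 0.148 FPKM. Ndufa4, a subunit now assigned to complex IV, had 159 FPKM and its relative Ndufa4l2 0.0917. The exception was the Cox7a family, in which Cox7a2 had 590 FPKM ± 136 (SD over the 18 libraries), the supercomplex factor Cox7a2l 115 ± 22.4 and the heart and muscle form Cox7a1 65.8 ± 21.0 (30.1 to 103). The 3 genes for the identical c subunit of ATP synthase ranked Atp5g3 (368 ± 73.9 FPKM), Atp5g2 (124 ± 17.4) and Atp5g1 (93.7 ± 19.7), where the last 2 overlap in range. The untested members were Cox4i2, Cox6a2, Cox7b2, Cox8b, Cox8c, Ndufa4l2 and a second row named Atp5o. Their total counts over 18 libraries were 12, 50, 0, 15, 0, 20 and 0.

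Promoter sequence is shown because textbook regulators of these genes (NRF1, GABP of the ETS family, YY1 and the estrogen-related receptors) bind short recognisable sites. RefSeq promoter windows of GRCm38.p6, from 250 bases before to 50 after a start, were matched to 76 of the 93 member symbols. The letters searched on both strands were GCGCANGCG for NRF1, CCGGAAG for ETS factors, AAGATGGCG for YY1 and TCAAGGTCA for estrogen-related receptors, and no matches of different motifs overlapped. NRF1 letters were found in 22 of 76 members (28.9%), against 7.03% of all 27025 promoters and 13.7% of those of tested genes. ETS letters were found in 18 (23.7%, against 9.93% and 18.2%), YY1 letters in 8 (10.5%, against 1.64% and 3.17%), and estrogen-related receptor letters in 2 (2.63%, against 0.466% and 0.317%). Of the 19 matched members that changed in any comparison below, 6 hold the YY1 letters, 5 the ETS letters and 1, Sdha, the NRF1 letters. A match describes letters and does not show binding. The stretches shown belong to members whose counts changed, on the gene's strand, with the matched letters in capitals. They are 3 NRF1 matches in Sdha at chr13:74350320-74350348, chr13:74350277-74350305 and chr13:74350232-74350260, then ETS matches in Ndufs3 (chr2:90904732-90904758 and chr2:90904704-90904730), Ndufs8 (chr19:3912743-3912769), Ndufb6 (chr4:40279637-40279663) and Sdhb (chr4:140961267-140961293), both an ETS and a YY1 match in Atp5j (chr16:84835021-84835047 and chr16:84835046-84835074), and YY1 matches in Ndufs4 (chr13:114388045-114388069), Ndufs7 (chr10:80249463-80249491), Ndufc1 (chr3:51408915-51408943), Ndufa9 (chr6:126849097-126849125) and Atp5j2 (chr5:145191500-145191528).
Sdha NRF1 first: cgtttacaggGCGCAGGCGcaccaccact
Sdha NRF1 second: ggggcgtgttGCGCAGGCGcagaatcttc
Sdha NRF1 last: gcgactcggtGCGCAAGCGcagtctgtcg
Ndufs3 ETS first: ccgcgtccgcCCGGAAGaagagtcact
Ndufs3 ETS second: cacatttccaCTTCCGGtccgtgccct
Ndufs8 ETS: taggctccgcCTTCCGGttgaaccgca
Ndufb6 ETS: cgtccttgttCTTCCGGtcccctcccc
Sdhb ETS: ctcggagaaaCCGGAAGcggccttcca
Atp5j ETS: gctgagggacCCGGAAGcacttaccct
Atp5j YY1: aagtgtaggaAAGATGGCGgagtcttagc
Ndufs4 YY1: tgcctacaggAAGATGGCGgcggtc
Ndufs7 YY1: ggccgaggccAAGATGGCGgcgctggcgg
Ndufc1 YY1: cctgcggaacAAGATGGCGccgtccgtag
Ndufa9 YY1: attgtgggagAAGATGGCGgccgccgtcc
Atp5j2 YY1: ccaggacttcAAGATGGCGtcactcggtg

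Summed over the 87 tested members, WT distal libraries held 14515, 13963 and 15627 CPM, FIP1KO distal 15894, 19983 and 16678, and FIP2KO distal 15316, 20528 and 18924. All FIP1KO distal libraries lay above the 3 WT distal libraries, while the first FIP2KO distal library lay inside the WT range. In proximal colon the sums were 18498, 24436 and 15965 CPM in WT, 19443, 18610 and 18950 in FIP1KO, and 14723, 19664 and 20849 in FIP2KO. The proximal groups overlapped, and the spread of the WT proximal libraries (SD 4348 CPM) was the widest. The order of libraries was much the same in complexes I, III, IV and V: FIP1KO distal library 2, FIP2KO distal library 2 and WT proximal library 2 were the highest of their groups in each. The same 3 libraries also had the highest cytosolic ribosomal protein sums of their groups (27748, 39393 and 42044 CPM), although the next FIP1KO distal library was close (26738 CPM). Group means of the ribosomal sum were 29030 CPM in WT distal, 24104 in FIP1KO distal and 31890 in FIP2KO distal libraries. It was thus lower than WT in FIP1KO distal libraries, where the members' sums were higher. The part of the ribosomal sums in the members' values was not tested. Because these are bulk samples, fewer cells of a type and less RNA per cell cannot be told apart.

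**Figure D2:**
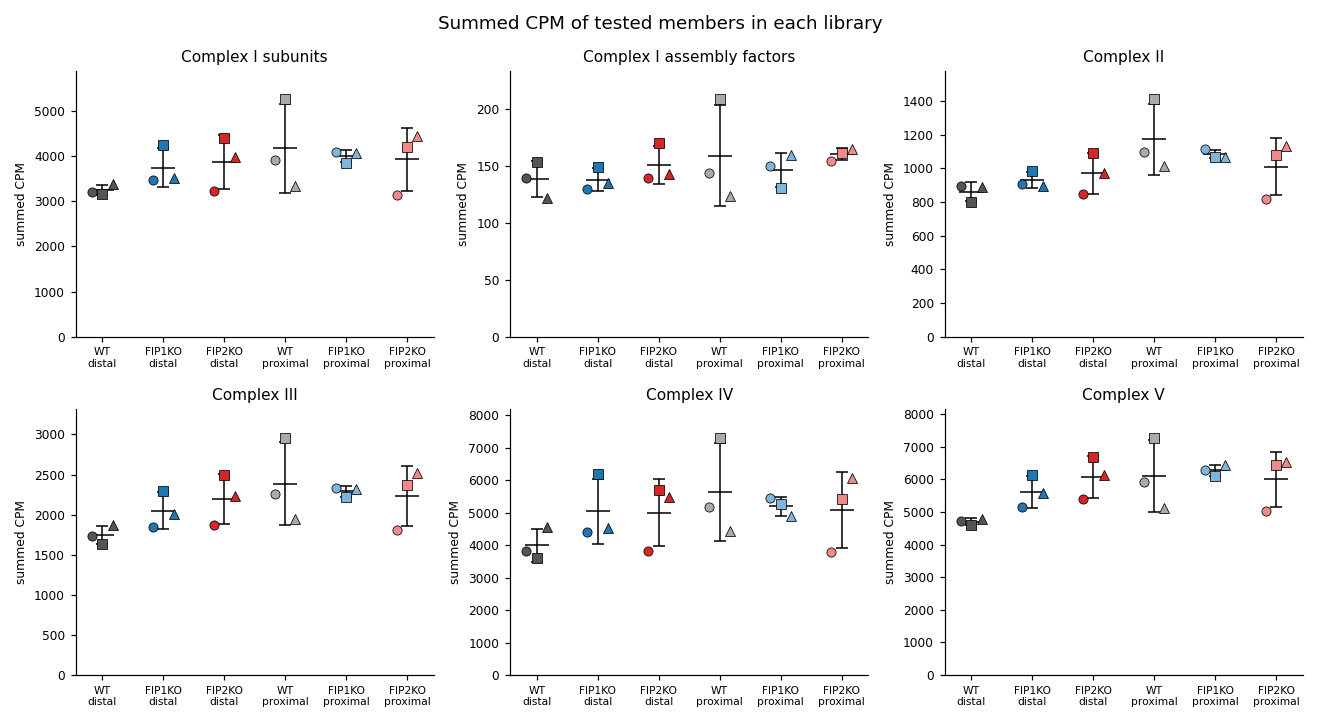
Summed CPM (axis from 0) of the tested genes of each complex in each library; circles, squares and triangles are libraries 1, 2 and 3, and bars are group means ± SD (n = 3). In complex V the 3 WT distal libraries (4604 to 4792 CPM) lie below all knockout distal libraries (5159 to 6676 CPM).

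FIP1KO against WT in distal colon asks what loss of Rab11FIP1 does there. Few members changed: 3 of 87 were higher (Cox7a2, Ndufs4 and Ndufc1) and 2 lower (Cox7a2l and Ndufs7), or 5.75% called. Among all tested genes 16.3% were called, 8.84% higher and 7.47% lower, so in this fit the members' share lay below the background. The median member nevertheless had a log2 fold change of 0.21 (median of all genes 0.00), 69 of 87 were above 0, and 31 had no overlap with WT in the higher direction and 6 in the lower (background 18.3% and 17.4% of genes). Without FIP1KO distal library 2 the median was 0.09, and leaving out any library gave between 0 and 9 calls (0 without WT distal library 2, 1 without WT distal library 3, FIP1KO distal library 2 or FIP1KO distal library 3, 3 without WT distal library 1, and 9 without WT proximal library 2). With library totals 16 members were called, all higher, beside 1992 higher and 746 lower calls among all genes. Limma on log2(FPKM + 1) called 19 members. The members' share against the background therefore depended on the setting. In the main fit the medians by complex were 0.20 in complex I, 0.00 in its assembly factors, 0.08 in complex II, 0.25 in complex III, 0.31 in complex IV and 0.26 in ATP synthase.

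Cox7a2, the widely expressed Cox7a subunit, had 213, 173 and 206 CPM in WT distal libraries and 278, 406 and 305 in FIP1KO distal libraries. Cox7a2l, a related gene known as a supercomplex factor, had 163, 174 and 144 CPM in WT and 78.1, 106 and 117 in FIP1KO. Whether its protein has that function in these mice was not measured. The groups did not overlap in either gene, and they moved in opposite directions. Cox7a2 rose by a log2 fold change of 0.74 ± 0.23 (SE; edgeR adjusted p = 0.0336) and Cox7a2l fell by 0.68 on the log2 scale (SE 0.19; edgeR adjusted p = 0.0200). The muscle form Cox7a1 had 27.7, 27.8 and 35.3 CPM in FIP1KO against 37.4, 40.5 and 47.5 in WT (log2 fold change -0.47, edgeR adjusted p = 0.263), without overlap but short of the threshold. Cox7a2l and Cox7a2 lie at chr17:83501919-83514333 and chr9:79755361-79759878 (GRCm38), each as a whole gene. The Cox7a2l call was lost without WT distal library 2 or FIP1KO distal library 1 (adjusted p up to 0.103) and under 4 of 10 other settings (library totals and limma on FPKM, up to 0.115), and the Cox7a2 call without any of the WT distal libraries or FIP1KO distal libraries 2 or 3 (up to 0.178).

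In complex I, Ndufs4, an accessory subunit of the electron input arm, had 79.4, 74.3 and 76.7 CPM in WT distal and 99.6, 156 and 118 in FIP1KO distal libraries (log2 fold change 0.70 ± 0.22 SE, edgeR adjusted p = 0.0334). Ndufc1, a small membrane-arm accessory subunit, had 38.3, 38.5 and 40.2 CPM against 50.6, 66.8 and 63.9 (0.63 ± 0.21, edgeR adjusted p = 0.0457). Ndufs7, which carries an iron-sulfur cluster next to the quinone site, had 71.4, 73.4 and 90.9 CPM against 65.4, 55.1 and 56.9 (-0.41 ± 0.13, edgeR adjusted p = 0.0402). None of these overlapped between groups, and each holds AAGATGGCG in its promoter window although Ndufs7 moved opposite to the other two. Omitting single libraries ended the Ndufs4 call in 5 of 18 cases, the Ndufs7 call in 8 and the Ndufc1 call in 13, the largest adjusted p being 0.202. The Ndufs7 call was also lost under 6 of 10 other settings (up to 0.298).

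FIP2KO against WT in distal colon had more calls: 6 of 87 members higher and 3 lower (10.3%), against 18.5% of all genes (9.13% higher, 9.38% lower). The median member had a log2 fold change of 0.25 (all genes 0.00), 73 of 87 were above 0, and 27 lay wholly above and 6 wholly below WT (background 17.9% and 19.7%). Without FIP2KO distal library 2 the median was 0.16 and 3 members were called, without FIP2KO distal library 3 there were 4 calls, without WT distal library 2 or 3 there were 2, and without WT proximal library 2 there were 17. The medians were 0.22 in complex I, 0.11 in its assembly factors, 0.19 in complex II, 0.25 in complex III, 0.32 in complex IV and 0.37 in ATP synthase. FIP1KO and FIP2KO were compared with the same WT libraries, so their values are not independent of each other.

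Within complex IV the tested genes divided by class in value. All 11 widely expressed subunits had log2 fold changes above 0 in FIP1KO distal and in FIP2KO distal libraries, with a median of 0.44 in each, although of these only Cox7a2 in FIP1KO was called. The tissue isoforms Cox7a1 and Cox6b2 and the supercomplex factor Cox7a2l were below 0 in both. Cox6b2, the testis form, had 1.66, 3.46 and 2.41 CPM in WT distal, 1.31, 0.907 and 0.988 in FIP1KO distal, and 0.930, 1.62 and 0.735 in FIP2KO distal libraries. Its knockout libraries lay below WT, at log2 fold changes of -1.21 and -1.18 that missed the threshold (edgeR adjusted p = 0.0546 and 0.0527).

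In ATP synthase, Atp5j2, the f subunit of the membrane part, had 358, 329 and 372 CPM in WT distal and 523, 686 and 626 in FIP2KO distal libraries. Atp5j, the F6 subunit of the peripheral stalk, had 179, 185 and 167 CPM against 247, 307 and 256. Atp5s, a coupling factor outside the core enzyme, went the other way, with 11.7, 16.8 and 14.4 CPM in WT and 5.32, 9.98 and 7.91 in FIP2KO. In all 3 genes the groups were separate. The log2 fold changes were 0.79 ± 0.22 for Atp5j2 (SE; edgeR adjusted p = 0.0194), 0.61 ± 0.20 for Atp5j (0.0432) and -0.88 ± 0.22 for Atp5s (0.00897). The Atp5s call was lost only without FIP2KO distal library 1 (adjusted p = 0.0511), the Atp5j2 call without WT distal library 2 or FIP2KO distal library 2 (up to 0.0755), and the Atp5j call in 12 of 18 omissions (up to 0.158). Atp5b, the catalytic beta subunit, had a log2 fold change of 0.24 (edgeR adjusted p = 0.257).

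In complex I, Ndufs8, an iron-sulfur subunit that passes electrons toward the quinone, had 85.7, 82.6 and 80.2 CPM in WT and 113, 150.3 and 134 in FIP2KO distal libraries (log2 fold change 0.68 ± 0.18 SE, edgeR adjusted p = 0.0137). The accessory subunit Ndufa9 had 136, 121 and 115 CPM against 162, 198 and 193 (0.57 ± 0.17, edgeR adjusted p = 0.0272). The membrane-arm subunit Ndufb6 had 52.5, 38.5 and 52.0 CPM against 63.1, 106 and 87.3 (0.84 ± 0.29, edgeR adjusted p = 0.0464). All 3 FIP2KO libraries exceeded all WT libraries in each of these genes. Omitting WT distal library 3 or FIP2KO distal library 2 ended the Ndufs8 call (adjusted p up to 0.0682), omitting libraries 2 or 3 of either group the Ndufa9 call (up to 0.104), and 12 of 18 omissions the Ndufb6 call (up to 0.176). Uqcrc2, a core protein of complex III, had 346, 293 and 299 CPM in WT and 442, 502 and 471 in FIP2KO (0.59 ± 0.16, edgeR adjusted p = 0.0159), again with separate groups. Its call was lost without WT distal libraries 2 or 3 or FIP2KO distal library 2 (up to 0.0615).

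The 8 epithelial markers, as a sum, moved with the distal results. Their sum was 8392 to 10525 CPM in WT distal, 11632 to 13694 in FIP1KO distal and 13861 to 15641 in FIP2KO distal libraries, and 2 and 4 of the 8 markers were called higher. T cell markers (6 genes, sum 2.27 to 4.95 CPM in WT distal) also rose, to 14.2 to 16.3 CPM in FIP1KO and 13.2 to 19.4 CPM in FIP2KO distal libraries, with 4 of 6 called in each. B and plasma cell markers averaged 6.34 ± 4.12 CPM (SD, n = 3) in WT distal, 87.4 ± 17.3 in FIP1KO distal (4 of 4 called higher) and 12.5 ± 4.52 in FIP2KO distal libraries (1 of 4 called higher). Of 5 fibroblast markers 2 were called higher in FIP1KO distal libraries (mean sum 53.6 against 19.2 CPM in WT), and of 6 neuronal markers 4 were called lower in FIP2KO distal libraries (3.76 against 11.9 CPM). Goblet cell markers, also epithelial, had lower sums in both knockouts. These were 19412 to 22075 CPM in WT distal, 15301 to 18948 in FIP1KO distal and 12436 to 16200 in FIP2KO distal libraries. Endothelial markers averaged 18.4 ± 8.71, 8.77 ± 2.55 and 5.10 ± 0.812 CPM in the same order. The part of these markers in the members' values was not tested.

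Ndufs3, a core subunit of complex I, and Cox7a1 were lower in FIP2KO in both segments. Ndufs3 had 79.0, 86.5 and 88.3 CPM in WT distal, 86.3, 76.9 and 72.7 in FIP1KO distal, and 65.5, 66.2 and 70.3 in FIP2KO distal libraries. In proximal colon it had 92.3, 88.5 and 89.1 CPM in WT, 93.3, 88.3 and 93.6 in FIP1KO, and 62.1, 67.2 and 66.2 in FIP2KO. All 6 FIP2KO libraries lay below all 12 others. The log2 fold change from WT was -0.33 ± 0.11 in distal (SE; edgeR adjusted p = 0.0481) and -0.47 ± 0.11 in proximal colon (edgeR adjusted p = 0.00992). The distal call was lost in 15 of 18 omissions of a library (adjusted p up to 0.153) and under 8 of 10 other settings (up to 0.369). The proximal call was kept in all 18 but lost under 6 of 10 other settings (up to 0.163), among them library totals and limma on FPKM. Ndufs3 lies at chr2:90894634-90904827 on the minus strand and overlaps Kbtbd4 on the plus strand. Since the strand of the libraries is not given in the sources used here, reads of the overlap cannot be assigned with certainty, but Kbtbd4 had 1882 counts in all libraries against 22384 for Ndufs3. Genes on the opposite strand also overlap Atp5j, Atp5d, Cox4i1, Cox5a, Ndufa9, Ndufb6, Sdha and Uqcrc2.

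Cox7a1, the heart and muscle form, had 37.4, 40.5 and 47.5 CPM in WT distal and 13.7, 31.4 and 24.8 in FIP2KO distal libraries, and 36.3, 48.6 and 25.3 CPM in WT proximal against 12.5, 16.5 and 23.6 in FIP2KO proximal libraries. The groups were separate in both segments. It fell by 0.84 on the log2 scale in distal (SE 0.27, edgeR adjusted p = 0.0354) and by 1.06 in proximal colon (SE 0.27, edgeR adjusted p = 0.0145). The distal call was lost without WT distal libraries 2 or 3 or FIP2KO distal libraries 1 or 3 (adjusted p up to 0.160), and the proximal call without WT proximal library 2 or FIP2KO proximal libraries 1 or 2 (up to 0.0762). Without WT proximal library 2 the proximal log2 fold change was -0.80 (edgeR adjusted p = 0.0530). The 4 tested striated muscle markers summed to 2.81 to 6.15 CPM in WT distal and 1.80 to 5.94 in FIP2KO distal libraries, and to 1.42 to 6.30 in WT proximal and 2.52 to 12.6 in FIP2KO proximal libraries. Of these 4, 2 were called higher in distal and 3 in proximal colon (2 without WT proximal library 2), and their part in the Cox7a1 values was not tested. Cox7a1 lies at chr7:30184144-30186078.

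In FIP2KO against WT in proximal colon, 4 of 87 members were lower and none higher (4.6% called), against 14.7% of all genes, 7.07% lower. Only 7 members lay wholly below WT (background 14%) and none wholly above. Beside Ndufs3 and Cox7a1 the lower members were Sdha, the flavoprotein that oxidises succinate, and Atp5d, the delta subunit of the central stalk. Sdha had 373, 452 and 372 CPM in WT proximal and 257, 297 and 327 in FIP2KO proximal libraries, and Atp5d had 292, 229.5 and 243 CPM against 150.4, 184 and 203. The groups did not overlap. The log2 fold changes were -0.44 ± 0.14 for Sdha (SE; edgeR adjusted p = 0.0409) and -0.51 ± 0.16 for Atp5d (edgeR adjusted p = 0.0406). Omitting a library ended the Sdha call in 11 of 18 cases (adjusted p up to 0.17) and the Atp5d call in 8 (up to 0.175). Both were also lost under 6 of 10 other settings (up to 0.229 and 0.195). Without WT proximal library 2 the log2 fold changes were -0.33 for Sdha (edgeR adjusted p = 0.103), -0.57 for Atp5d (0.0258) and -0.47 for Ndufs3 (0.0103). T cell markers summed to 8.16 to 9.82 CPM in WT proximal and 66.3 to 84.9 CPM in FIP2KO proximal libraries, with 5 of 6 called higher. B and plasma cell markers averaged 3.78 ± 2.25 CPM against 74.4 ± 38.0 (4 of 4 called higher), and 5 of 6 neuronal markers were called lower (mean sum 52.7 against 8.53 CPM). Without WT proximal library 2, 4 of 6 T cell and 4 of 4 B and plasma cell markers were called higher and 4 of 6 neuronal markers lower. The part of these markers in the members' values was not tested. The median member had -0.09 and 60 of 87 were below 0, but without WT proximal library 2 the median was 0.09, 59 were above 0 and 5 were called (2 higher, 3 lower), and with scaling to library totals it was 0.07.

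In FIP1KO against WT in proximal colon, no member was called by edgeR, 2 had an unadjusted p under 0.05, and DESeq2 also called 0, whereas 13.6% of all genes were called. The median was -0.05, but 0.13 without WT proximal library 2 and 0.14 with scaling to library totals. In the direct comparison of FIP1KO with FIP2KO, 0 of 87 members were called in distal colon (1 at unadjusted p under 0.05, DESeq2 0; background 1.86%). In proximal colon 1 was called, Ndufs3, higher in FIP1KO (background 2.75%, 1.33% higher). Its log2 fold change was 0.49 ± 0.11 (SE; edgeR adjusted p = 0.0229), and that call was lost when any library of the compared groups was omitted (adjusted p up to 0.0805) and under 6 of 10 other settings (up to 0.0985).

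**Figure D3:**
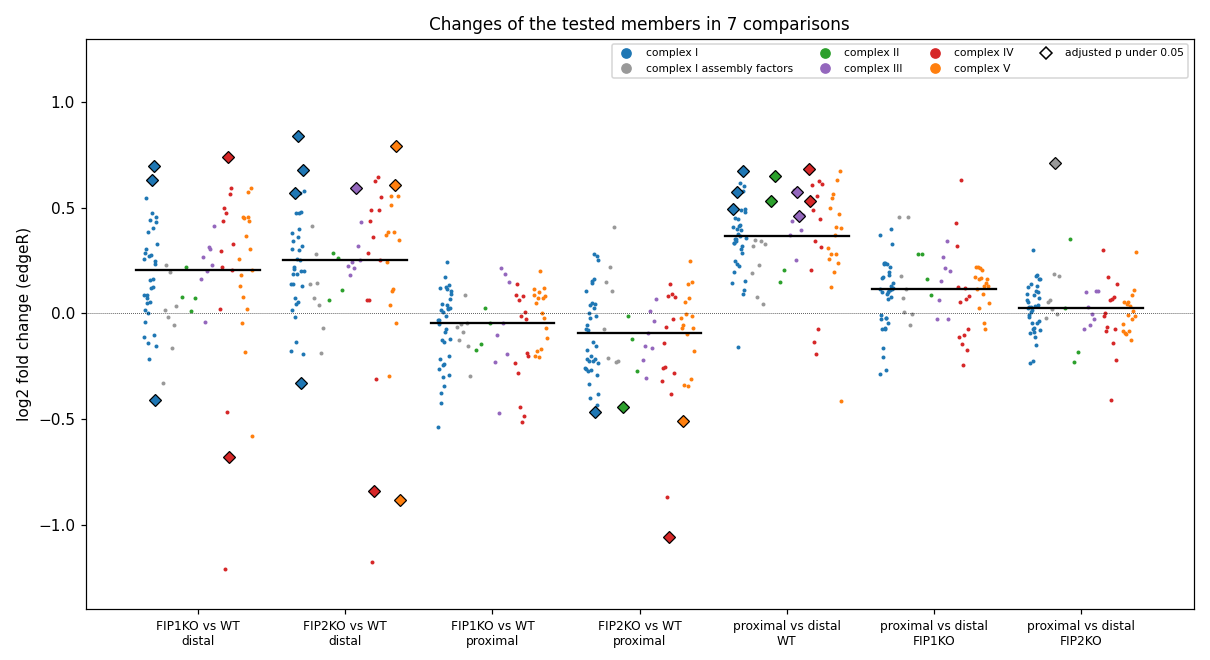
Log2 fold changes (edgeR) of the 87 tested genes in 7 comparisons, coloured by complex; black bars are medians and diamonds mark adjusted p under 0.05. The medians lie at 0.21 and 0.25 in the distal knockouts and at 0.37 between WT segments, and close to 0 elsewhere.

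Proximal against distal colon within WT had the largest median of the 7 comparisons shown. In WT, 9 of 87 members were higher in proximal colon and none lower (10.3%), against 16.4% of all genes (8.96% higher). The median log2 difference was 0.37 (all genes -0.01), 82 of 87 were above 0, and 22 were wholly above and 1 wholly below (background 14.3% and 14%). By complex the medians were 0.36 in complex I, 0.27 in its assembly factors, 0.37 in complex II, 0.45 in complex III, 0.47 in complex IV and 0.37 in ATP synthase. Without WT proximal library 2 the median was 0.16, 71 members were above 0, 24 were wholly above and 2 wholly below, and 3 were called, Sdha and Ndufa10 among them. Groups of 2 and 3 libraries separate more easily than groups of 3 and 3. The counts of 24 and 2 therefore cannot be set against the background above, and the share of all genes called in that fit is not given. Its complex medians were 0.16 in complex I, 0.02 in its assembly factors, 0.24 in complex II, 0.21 in complex III, 0.13 in complex IV and 0.20 in ATP synthase. By contrast, without WT proximal library 3 the median was 0.52 and 24 were called. Without WT distal libraries 1, 2 or 3 the calls were 3, 1 and 5.

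Cell type markers also differed between the WT segments. The 5 absorptive colonocyte markers summed to 7146 ± 3017 CPM (SD, n = 3) in distal and 21966 ± 2690 in proximal libraries, with 1 called higher and 3 lower. The proximal sum was mostly Car1, which averaged 17905 CPM in WT proximal libraries without library 2. Without that library the median log2 difference of the 5 was -1.28. The 6 enteroendocrine markers summed to 211 ± 22.7 and 718 ± 90.9 CPM, with 4 called higher. Of 6 T cell markers 3 were called higher, as were 5 of 6 neuronal and 2 of 7 macrophage markers, while 2 of 4 B and plasma cell and 2 of 4 endothelial markers were called lower. Without WT proximal library 2, 3 of 6 T cell, 0 of 6 neuronal and 1 of 7 macrophage markers were called higher. The lower calls were then 1 of 4 in each of the last 2 lists, and enteroendocrine markers had 3 higher and 1 lower. The part of these markers in the members' values was not tested.

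Cox4i1, the second most abundant member, had 696, 672 and 860 CPM in WT distal and 1167, 1359 and 1052 in WT proximal libraries, with a gap between the groups. Its log2 difference was 0.68 ± 0.19 (SE, edgeR adjusted p = 0.0193). Cox5a, another nuclear subunit of complex IV, had 107, 90.7 and 134 CPM against 147, 186 and 146 (0.53, edgeR adjusted p = 0.0430). Complex II moved in the same direction. Sdha had 293, 263 and 271 CPM in distal and 373, 452 and 372 in proximal libraries (0.53, edgeR adjusted p = 0.0127), and Sdhb, its iron-sulfur partner, had 258, 207 and 279.6 against 355, 505 and 309 (0.65, edgeR adjusted p = 0.0356). In complex III, Uqcrc2 had 346, 293 and 299 CPM against 419, 587 and 391 (0.57, edgeR adjusted p = 0.0184), and the Rieske protein Uqcrfs1 had 223, 194 and 222 against 306, 306 and 268 (0.46, edgeR adjusted p = 0.0497). The called complex I genes were all accessory subunits: Ndufa10 (0.49, edgeR adjusted p = 0.00934), Ndufa9 (0.57, 0.0271) and Ndufs4 (0.67, 0.0390). None of the 9 overlapped between segments. Of these calls, Sdha and Ndufa10 were kept in 17 of 18 omissions, being lost without WT distal library 2 (adjusted p = 0.0539) and WT distal library 1 (0.0507) respectively. Cox4i1 and Sdhb were each lost without WT distal libraries 1 or 2 or WT proximal library 2 (up to 0.0809 and 0.187), and Ndufa9 and Uqcrc2 without WT distal libraries 2 or 3 or WT proximal library 2 (up to 0.162 and 0.102). Ndufs4, Cox5a and Uqcrfs1 were kept in 11, 8 and 2 of the 18 omissions. Each of the 9 calls was also lost under 4 to 6 of 10 other settings (4 for Cox4i1, 5 for Ndufa10 and 6 for Sdha), with adjusted p up to 0.196. Without WT proximal library 2 the log2 differences were 0.44 for Sdha, 0.37 for Ndufa10, 0.59 for Cox4i1, 0.42 for Cox5a, 0.43 for Sdhb, 0.38 for Uqcrc2, 0.44 for Uqcrfs1, 0.36 for Ndufa9 and 0.35 for Ndufs4.

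Within the knockouts the segment difference was smaller in value. In FIP1KO no member was called by edgeR (7 at unadjusted p under 0.05, DESeq2 2; background 6.6%), with a median of 0.12, 63 of 87 above 0 and 19 wholly above distal (background 10.9%). That median was 0.03 without FIP1KO distal library 1 and 0.24 without FIP1KO distal library 2. In FIP2KO only Ndufaf6, an assembly factor of complex I, was called higher (background 9.47%, 4.99% higher), and the median was 0.03. Ndufaf6 had 6.15, 7.01 and 5.99 CPM in distal and 12.2, 10.4 and 8.89 in proximal libraries (0.71 ± 0.19 SE, edgeR adjusted p = 0.0231), without overlap. The call was lost without FIP2KO distal libraries 1 or 3 or FIP2KO proximal libraries 1 or 2 (adjusted p up to 0.104) and under 5 of 10 other settings (up to 0.13). Whether the knockout effect differed between segments was tested directly, and 0 of 87 members were called for FIP1KO (1 at unadjusted p under 0.05, DESeq2 0; background 0.644%) or FIP2KO (8 at unadjusted p under 0.05, DESeq2 0; background 0.328%). The median of that difference was -0.29 for FIP1KO and -0.38 for FIP2KO, with 74 and 83 of 87 below 0. Without WT proximal library 2 these were -0.04 (52 below 0) and -0.15 (66 below 0), so both medians depended on that library.

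**Figure D4:**
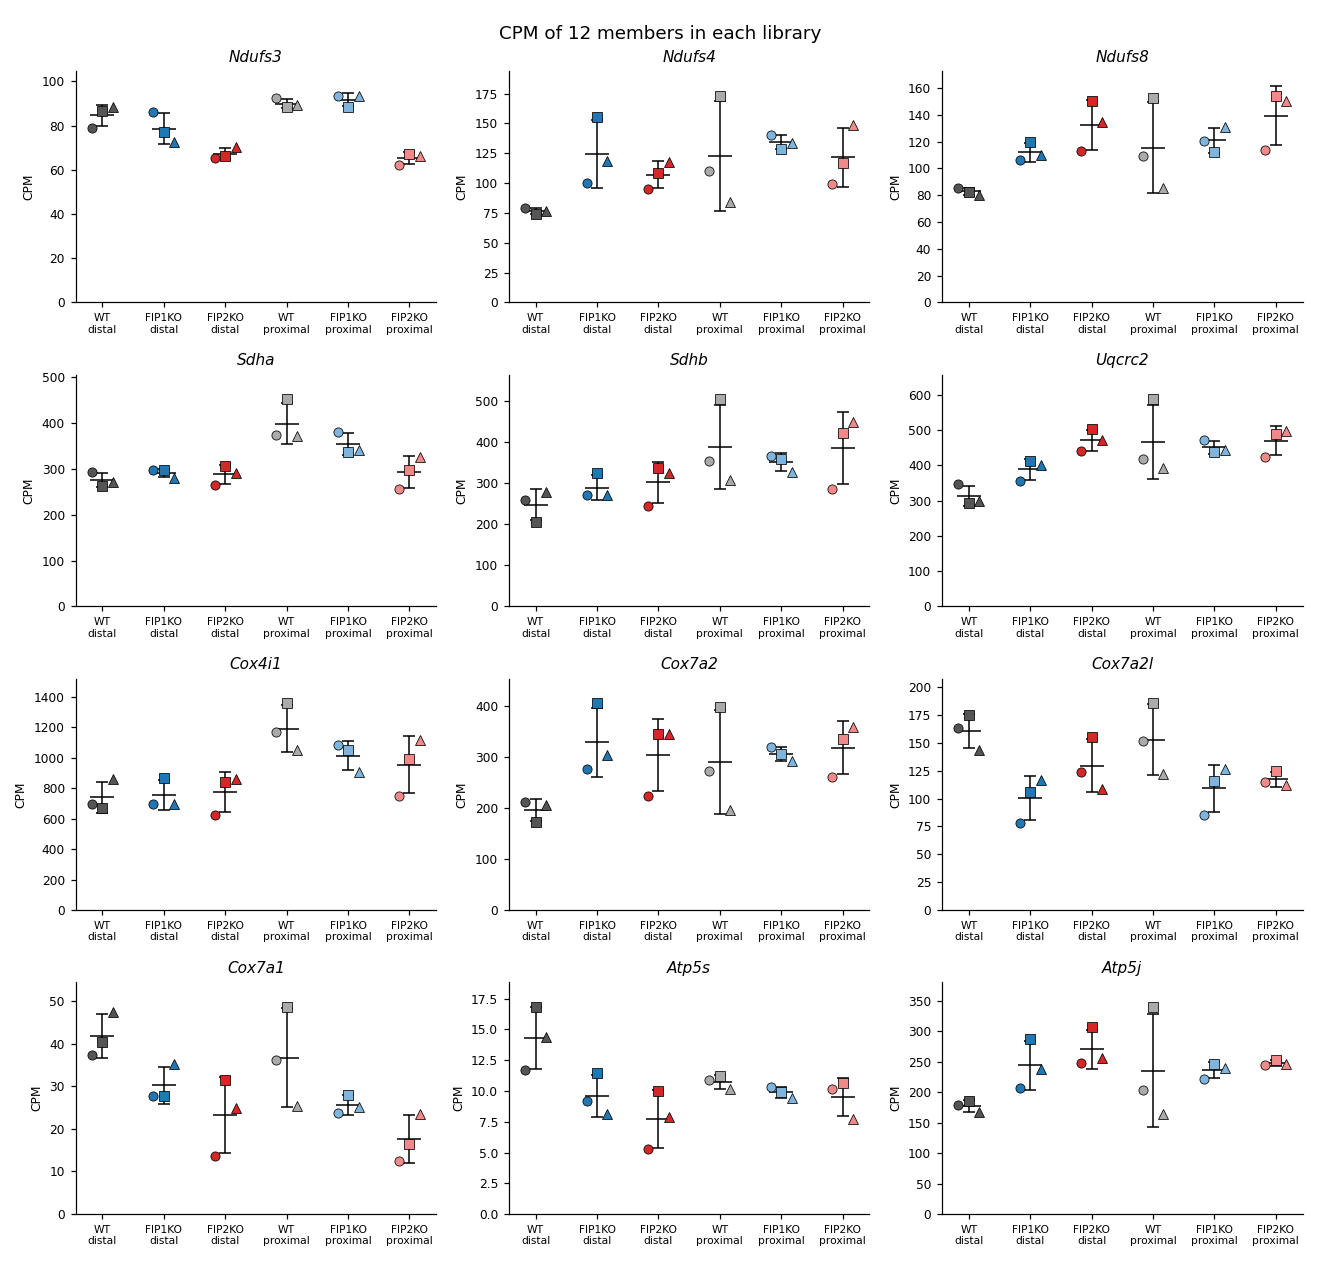
CPM (axes from 0) of 12 genes in each library; circles, squares and triangles are libraries 1, 2 and 3, and bars are group means ± SD (n = 3). Ndufs3 is lowest in the 6 FIP2KO libraries (62.1 to 70.3 CPM), Cox4i1 is higher in WT proximal (1052 to 1359) than in WT distal libraries (672 to 860), and WT proximal library 2 is the highest of its group in every panel except Ndufs3.

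The 13 subunits encoded on mitochondrial DNA, which assemble with the members, were abundant and variable. They summed to 238782 ± 87667 CPM (SD, n = 3) in WT distal, 136246 ± 35137 in FIP1KO distal and 129087 ± 34293 in FIP2KO distal libraries, and to 254267 ± 59856, 154488 ± 55869 and 163681 ± 31577 in the proximal groups in the same order. WT distal libraries alone ranged from 159547 to 332961 CPM. Their median log2 fold changes from WT were -0.68 and -0.88 in the distal knockouts FIP1KO and FIP2KO, where the nuclear members had 0.21 and 0.25, and -0.54 and -0.52 in the proximal knockouts. Only 1, 4, 3 and 1 of the 13 were called lower (FIP1KO distal, FIP2KO distal, FIP1KO proximal, FIP2KO proximal) and none higher. As shares of the 13 these are 7.69%, 30.8%, 23.1% and 7.69%, beside 7.47%, 9.38% and 7.07% of all tested genes called lower in FIP1KO distal, FIP2KO distal and FIP2KO proximal and 13.6% called in either direction in FIP1KO proximal libraries. Without WT proximal library 2 the WT proximal mean was 219828 CPM, the proximal medians were -0.30 and -0.34, and 1 of 13 was called lower in each proximal knockout. These sums come from poly-A selected RNA and describe the libraries.

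**Figure D5:**
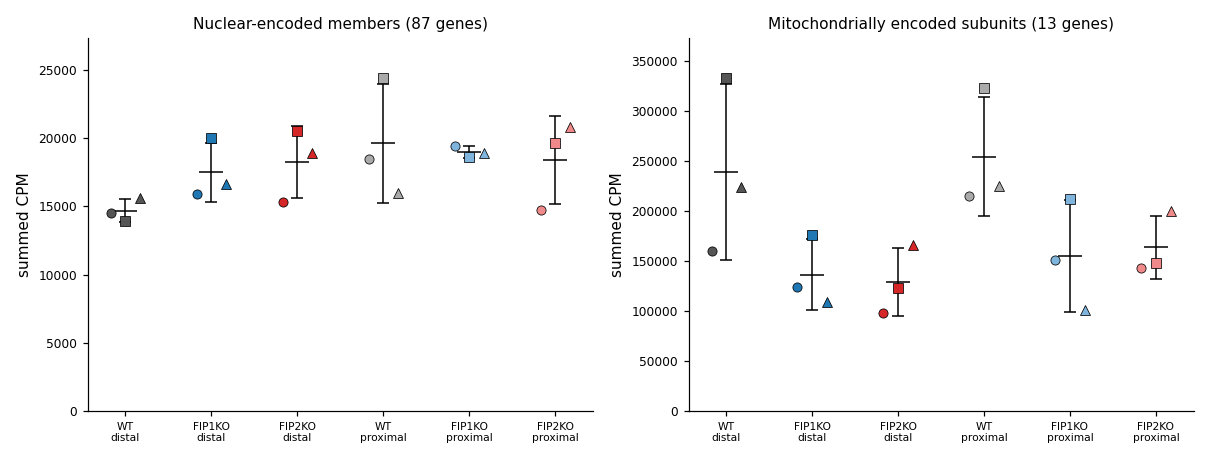
Summed CPM (axes from 0) in each library of the 87 tested nuclear genes and of the 13 mitochondrially encoded subunits; symbols and bars as in the plot of complex sums. In distal colon the WT mean is the lowest of the 3 genotypes on the left (14702 CPM) and the highest on the right (238782 CPM).

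The mitochondrially encoded complex I subunit mt-Nd3 stood out in FIP2KO: it averaged 143 ± 64.8 CPM in WT distal and 7.58 ± 2.46 in FIP2KO distal libraries, and 115 ± 15.8 against 12.1 ± 1.89 in proximal colon. In FIP1KO it averaged 90.4 and 89.9 CPM. The log2 fold changes from WT in FIP2KO were -4.23 (edgeR adjusted p = 4.96e-08) and -3.25 (edgeR adjusted p = 9.43e-07), the latter -3.19 without WT proximal library 2. mt-Nd4l, also of complex I, fell by 1.24 on the log2 scale in FIP2KO distal libraries (edgeR adjusted p = 0.00195) and by 0.80 in FIP1KO distal libraries (edgeR adjusted p = 0.0303).

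Other genes of the pathway were read from lists. Their counts stand beside 16.3% of all tested genes called in FIP1KO distal, 18.5% in FIP2KO distal, 13.6% in FIP1KO proximal and 14.7% in FIP2KO proximal libraries. Among 17 genes of electron carriers and coenzyme Q synthesis, 2 rose and 3 fell in FIP1KO distal, 1 rose and 5 fell in FIP2KO distal, 1 rose and 2 fell in FIP1KO proximal, and 2 fell in FIP2KO proximal libraries (29.4%, 35.3%, 17.6% and 11.8% called). Without WT proximal library 2, 2 of the 17 rose and 2 fell in FIP1KO proximal, and 1 rose and 3 fell in FIP2KO proximal libraries. Cycs, somatic cytochrome c, averaged 190 ± 23.9 CPM in WT distal, 389 ± 72.4 in FIP1KO distal and 449 ± 34.9 in FIP2KO distal libraries (log2 fold changes 1.03 and 1.24, edgeR adjusted p = 0.00317 and 0.000721). It was also higher in WT proximal than WT distal libraries (0.90, edgeR adjusted p = 0.00681), and at 0.61 without WT proximal library 2 (edgeR adjusted p = 0.0466). Its proximal knockout values missed the threshold with that library and passed it without (0.75 and 0.79, edgeR adjusted p = 0.0202 and 0.0118 in FIP1KO and FIP2KO). Coq8a, a kinase-like protein of coenzyme Q synthesis, fell in both knockouts and both segments, with log2 fold changes of -1.79 and -2.08 in distal and -1.77 and -1.52 in proximal colon for FIP1KO and FIP2KO. The mitochondrial lipid-binding gene Coq10a also fell in all 4 comparisons (-0.95, -1.19, -0.68 and -0.81 in that order). Of 40 assembly factors outside the Nduf names, 1 rose and 1 fell in FIP1KO in each segment, and 2 fell in FIP2KO in each segment, 5% called each time and below the background. Surf1, a complex IV assembly factor, was lower in all 4 (-0.40, -0.42, -0.44 and -0.59), and Cox15, of heme A synthesis, in FIP2KO only by its calls (-0.43 distal, -0.61 proximal).

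Among 14 regulators of mitochondrial biogenesis, Ppargc1a, a coactivator of these genes, averaged 75.7 ± 14.6 CPM in WT distal, 46.4 ± 8.36 in FIP1KO distal and 35.8 ± 14.8 in FIP2KO distal libraries, and 64.8 ± 3.17, 29.1 ± 6.30 and 19.9 ± 3.31 in the proximal groups. It fell in FIP2KO distal (log2 fold change -1.08, edgeR adjusted p = 0.00572), FIP1KO proximal (-1.16, 0.00457) and FIP2KO proximal (-1.70, 0.000269) libraries, and the proximal changes were -1.19 and -1.72 without WT proximal library 2. The other called regulator against WT was Pprc1, higher in FIP2KO proximal libraries (1.04, edgeR adjusted p = 0.0160). Of 18 genes of the tricarboxylic acid cycle and pyruvate dehydrogenase, 3 rose in FIP2KO distal libraries (Sucla2, Pdhx and Fh1; 16.7% called, near the background), and none was called in the other 3 knockout comparisons. Of 77 mitochondrial ribosomal proteins, 3 rose in FIP2KO distal libraries (3.9%, below the background) and none was called in the other 3. That absence depended on WT proximal library 2: without it 2 of 77 rose in FIP1KO proximal and 8 of 77 in FIP2KO proximal libraries. In glycolysis (18 genes), 2 rose and 3 fell in FIP2KO distal, 2 rose and 1 fell in FIP1KO proximal, 1 rose and 3 fell in FIP2KO proximal and none was called in FIP1KO distal libraries (27.8%, 16.7%, 22.2% and 0%). Hk2, which phosphorylates glucose, rose by log2 fold changes of 0.96, 1.70 and 1.28 in those 3 comparisons. Without WT proximal library 2 the glycolysis calls were 2 higher and 0 lower in FIP1KO proximal and 1 higher and 4 lower in FIP2KO proximal libraries. Among 6 carriers and porins, the ADP/ATP carrier Slc25a4 rose in FIP1KO distal libraries (1.44, edgeR adjusted p = 0.00887) and the porin Vdac3 fell in FIP1KO proximal libraries (-0.58, edgeR adjusted p = 0.0472), 16.7% called in each. The Vdac3 call was lost without WT proximal library 2 (-0.40, edgeR adjusted p = 0.184).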

How the data were processed

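Polyadenylated RNA of 18 libraries was read from the deposited tables. Counts per gene were deposited by the authors, for which HTSeq 0.6.1, STAR 2.5, DESeq2 and TopHat, and the builds mm10 and GRCm38, are listed without roles in the submitters' processing notes. The FPKM values were deposited by the authors with the same genes. Log2 values were computed from the deposited FPKM here. The strand of counting is not given in the sources used here. Counts were fitted in R 4.3.3 with edgeR 4.0.16: TMM factors, filterByExpr and 1 quasi-likelihood fit to the 6 groups, 11 contrasts, each adjusted with Benjamini-Hochberg over 17692 genes. Called means adjusted p under 0.05. Alternatives were RLE, library totals, removal of mitochondrially encoded genes, no filter, DESeq2 1.42.0, the compared libraries alone, the replicate number as a block, limma 3.58.1 on log2(FPKM + 1), log2(FPKM + 0.1) and without a filter, and each library left out. The fit was tested on simulated data. Libraries were compared pairwise for duplicates (lowest chi-square per degree of freedom 14.0), and none were found.

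Members, lists and tests were chosen with earlier results of these data known. Named were up to 4 called members per complex and direction by adjusted p (all where at most 5 were called), the 2 members of highest FPKM per complex, isoform families, both target genes and up to 3 called genes of each other list. Libraries of FIP2KO with the same number deviated together between segments (r = 0.422, 0.263 and 0.294 across genes, which are not independent). The numbers may therefore pair libraries there, which the labels do not state. In FIP1KO the same-number values (0.215, 0.196 and 0.094) also lay above the different-number values (-0.195 to 0.006), so pairs are possible there. In WT (-0.09, 0.143, 0.249) pairing is uncertain, and between genotypes the numbers were taken as numbers only. The main segment tests used no pairs. With the replicate block 3465, 1594 and 2138 genes were called between segments in WT, FIP1KO and FIP2KO, against 2893, 1167 and 1676 without it.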

Additional observations from a re-analysis of the deposited data

How the results depend on the processing

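No called change of a named member reversed its direction under any alternative run, but medians near 0 and counts of called members moved. With library totals the members' medians changed sign in FIP1KO proximal (-0.05 to 0.14), FIP2KO proximal (-0.09 to 0.07) and FIP1KO against FIP2KO distal (-0.05 to 0.02), where they were 0.00, -0.06 and -0.06 relative to the median of all genes, and without WT proximal library 2 they were 0.13 and 0.09 in the first 2. With library totals the counts were 16 (FIP1KO distal, all higher), 1 (FIP2KO proximal), 0 (FIP1KO against FIP2KO proximal), 1 (WT segments) and 0 (FIP2KO segments). Among all genes it called 1992 higher and 746 lower in FIP1KO distal and 1802 and 756 in FIP2KO proximal. The calls were 191 and 203 for FIP1KO against FIP2KO proximal, 1157 and 1437 between WT segments and 766 and 776 between FIP2KO segments. This scaling shifted the median of all genes by 0.14 in FIP1KO distal, 0.14 in FIP1KO proximal, 0.13 in FIP2KO proximal and -0.13 between WT segments, and the members' medians relative to it stayed close (0.205 and 0.357 against 0.207 and 0.375 for FIP1KO distal and WT segments). With it the share of higher among all called genes went from 54.2% to 72.8% in FIP1KO distal, 49.3% to 66.5% in FIP1KO proximal, 51.8% to 70.4% in FIP2KO proximal, 65.3% to 77% between the distal knockouts and 54.8% to 44.6% between WT segments. Without a filter the counts were 10 (FIP1KO distal), 16 (FIP2KO distal), 1 (FIP2KO proximal), 0 (knockouts, proximal) and 0 (FIP2KO segments). With the compared libraries alone they were 10 (FIP1KO distal), 1 (FIP2KO proximal), 0 (knockouts, proximal) and 0 (WT segments). DESeq2 called 16 (FIP2KO distal), 4 (knockouts, proximal), 17 (WT segments) and 2 (FIP1KO segments). With limma on log2(FPKM + 1), log2(FPKM + 0.1) and without a filter, FIP2KO proximal had 1, 1 and 0, knockouts proximal 0, 0 and 0, WT segments 0, 0 and 1, and FIP2KO segments 0, 0 and 0; FIP1KO distal had 19 and 18 with the first 2. The cause of these shifts was not tested. Shares of all genes called without a filter, with the compared libraries alone, with DESeq2 and with limma are not given here. Those member counts therefore have no background beside them.

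With the replicate block the counts were 5, 0, 10 and 4 for FIP1KO distal, FIP1KO proximal, FIP2KO distal and FIP2KO proximal, 0 and 1 for FIP1KO against FIP2KO distal and proximal, 13, 0 and 1 for segments in WT, FIP1KO and FIP2KO, and 0 and 0 for the differences between segments. In the same order the calls among all genes were 2926, 2434, 3363 and 2589, then 340 and 509, then 3465, 1594 and 2138, and last 262 and 202. Among the named calls the block ended those of Ndufb6 and Ndufs3 in FIP2KO distal libraries.

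Leaving out a library gave 0 to 9 calls in FIP1KO distal (9 without WT proximal library 2, 0 without WT distal library 2), 2 to 17 in FIP2KO distal (17 without WT proximal library 2), 1 to 5 in FIP2KO proximal, 0 to 2 for knockouts proximal, 1 to 24 for WT segments, 0 to 1 for FIP1KO segments and 0 to 1 for FIP2KO segments. Shares of all genes called with a library left out are given neither here nor above, so these counts also lack a background. The median difference between segments ranged from -0.426 to -0.039 for FIP1KO and from -0.50 to -0.15 for FIP2KO.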

Other observations

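Genes of these complexes that the name rule misses were looked up after the members' values had been seen. Usmg5, a small ATP synthase membrane protein, rose in FIP1KO distal (log2 fold change 0.75, edgeR adjusted p = 0.0265) and FIP2KO distal libraries (0.65, edgeR adjusted p = 0.0484). Atpif1, the ATP synthase inhibitor, averaged 99.9 ± 10.6 CPM in WT distal and 182 ± 50.3 CPM in WT proximal libraries (0.86, edgeR adjusted p = 0.00812), and 0.65 (edgeR adjusted p = 0.0493) without WT proximal library 2. Cyc1, the cytochrome c1 of complex III, was called in none of the 11 contrasts.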
